A study of Mus musculus with 3 samples.

Results

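Accessible chromatin was examined around 9 genes that mark delta cells, the somatostatin-secreting cells of the islet of Langerhans: Sst, Hhex, Rbp4, Ghsr, Cckbr, Lepr, Ffar4, Casr and Bche. They were taken as a fixed list of names, and every ATAC-seq peak that touched the gene body or the 50 kb on either side was kept. These windows spanned 1226 kb and held 32 of 60898 peaks in wild type (WT), 81 of 150354 at 1 week and 74 of 151725 at 5 weeks after inactivation of Taf4 (Taf4 KO). All 9 genes were found among the 22359 protein-coding genes of the annotation, Ffar4 under its older name O3far1.

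ATAC-seq marks open chromatin by where a transposase can insert sequencing adapters. Taf4 is a subunit of TFIID, the factor that recognises core promoters for RNA polymerase II. The 3 libraries, 1 per group, came from islets that were isolated from adult mice and dissociated with Accutase, with the strain labelled C5LBl6 in each. The study addressed what the loss of Taf4 from beta cells does to islet chromatin.

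The first library was labelled wild type, with no time given. The other two were labelled Taf4 KO, 1 week and 5 weeks. In the study's mice, floxed Taf4 alleles were deleted by an Ins1::Cre-ERT2 transgene after tamoxifen injection, and its control animals also received tamoxifen. Whether the wild type mice of this library carried the transgene is not stated in the labels. The driver acts in beta cells, so delta cells of the Taf4 KO islets kept their Taf4 alleles unless the driver acted there too. How many animals went into a library is not stated, and with 1 library per group the differences below have no animal-to-animal spread beside them.

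Delta cells are a minority of islet cells, and the somatostatin they release restrains the secretion of both insulin and glucagon. Transcription of Sst is classically driven by a cyclic AMP response element (CRE) close to its start and by homeodomain factors that bind around it. Hhex is the homeodomain factor that maintains delta cell identity. The surface receptors of the list tie delta cells to signals from outside: Ghsr to ghrelin, Cckbr to gastrin and cholecystokinin, Lepr to leptin, Ffar4 to long-chain fatty acids and Casr to extracellular calcium. Rbp4 is the plasma carrier of retinol and Bche is butyrylcholinesterase, an enzyme that hydrolyses choline esters.

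The sequences that carry the results below are printed here from the mm9 assembly, 5′ to 3′. The first is the stretch before the start of Sst on the minus strand, chr16:23890931-23891180, which lay wholly inside the promoter peaks of both Taf4 KO lists and in no WT peak. Capitals mark the CRE, TGACGTCA, from 48 to 41 bases before the start. Of 32851 RefSeq promoters, read from 250 bases before to 50 bases after the start in GRCm38.p6, 1.79% held these letters, and Sst was the only delta cell gene among them. The letters read the same on both strands.
Sst promoter: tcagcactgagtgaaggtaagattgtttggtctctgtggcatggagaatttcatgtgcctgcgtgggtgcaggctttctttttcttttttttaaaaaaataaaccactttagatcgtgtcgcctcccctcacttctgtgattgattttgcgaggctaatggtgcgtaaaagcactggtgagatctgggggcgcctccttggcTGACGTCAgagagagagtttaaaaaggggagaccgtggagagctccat

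The second is the stretch before the RefSeq start of Hhex on the plus strand, chr19:37509081-37509330. Capitals mark the 185 bases that were inside peaks of all 3 lists.
Hhex promoter: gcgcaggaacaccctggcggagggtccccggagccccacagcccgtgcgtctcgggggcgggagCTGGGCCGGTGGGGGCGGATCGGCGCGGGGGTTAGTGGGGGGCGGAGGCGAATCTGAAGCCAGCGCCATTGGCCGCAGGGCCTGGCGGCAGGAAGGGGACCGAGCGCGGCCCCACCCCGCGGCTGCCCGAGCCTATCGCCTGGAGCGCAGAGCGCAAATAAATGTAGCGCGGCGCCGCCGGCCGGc

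The other four are the central 300 bases, plus strand, of distal regions. Capitals mark the homeodomain letters TAATTA, which read the same on both strands, or the forkhead letters TGTTTAC or their reverse complement. Over all 233507 regions of the series, 7.06% had TAATTA and 5.08% the forkhead letters in their centre. In the delta cell gene windows 9 of 102 (8.82%) and 6 of 102 (5.88%) did. The first region lay downstream of Sst, chr16:23842801-23843100, and the second downstream of Ghsr, chr3:27306266-27306565. The third was in an intron of Casr, chr16:36543074-36543373, and each of these was open in all 3 lists. The fourth, upstream of Cckbr at chr7:112543189-112543488, was open in both Taf4 KO lists and not in WT.
Sst downstream region: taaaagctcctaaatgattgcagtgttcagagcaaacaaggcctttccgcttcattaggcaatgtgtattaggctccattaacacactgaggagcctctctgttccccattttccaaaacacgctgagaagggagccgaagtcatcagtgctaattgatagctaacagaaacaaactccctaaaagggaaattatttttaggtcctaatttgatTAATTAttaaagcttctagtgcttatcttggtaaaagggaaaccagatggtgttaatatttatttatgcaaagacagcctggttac
Ghsr downstream region: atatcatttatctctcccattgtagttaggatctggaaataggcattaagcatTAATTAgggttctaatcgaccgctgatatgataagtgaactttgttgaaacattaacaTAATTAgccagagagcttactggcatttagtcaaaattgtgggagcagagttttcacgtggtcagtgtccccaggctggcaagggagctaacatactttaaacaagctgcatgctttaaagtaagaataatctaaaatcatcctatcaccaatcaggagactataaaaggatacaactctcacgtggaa
Casr intronic region: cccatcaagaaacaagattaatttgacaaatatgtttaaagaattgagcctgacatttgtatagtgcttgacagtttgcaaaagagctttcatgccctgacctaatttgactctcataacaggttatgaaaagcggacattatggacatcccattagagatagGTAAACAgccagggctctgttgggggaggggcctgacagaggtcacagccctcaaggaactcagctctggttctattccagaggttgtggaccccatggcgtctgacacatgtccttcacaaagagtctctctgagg
Cckbr upstream region: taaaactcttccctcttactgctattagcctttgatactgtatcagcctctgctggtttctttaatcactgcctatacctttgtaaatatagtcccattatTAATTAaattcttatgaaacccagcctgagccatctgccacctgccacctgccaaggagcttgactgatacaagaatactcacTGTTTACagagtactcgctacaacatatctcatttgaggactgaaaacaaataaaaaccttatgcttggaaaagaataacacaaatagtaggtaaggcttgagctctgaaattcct

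Each peak is described by its fold over the local background and its -log10 q, both given by the authors' peak caller for that library alone. The lists differed in depth: the 1st percentile of the local background recovered from them was 3.66 reads in WT, 6.45 at 1 week and 9.38 at 5 weeks. Values of -log10 q rise with depth and were therefore ranked within each list, as a percentile in which 100 is the strongest peak. A list with more weak peaks places a given peak at a higher percentile, so the place counted from the strongest peak of the list is given where lists are compared.

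At promoters, more delta cell genes had a peak in the Taf4 KO lists. The peaks behind the added calls at Sst, Cckbr and Lepr stood between the 10.3 and 29.2 percentiles of their lists. The one at Hhex stood at 56.6. Those at Hhex and Cckbr overlapped WT peaks that lay outside the promoter window. A promoter peak, one within 1000 bp before or 100 bp after an annotated coding start, was called at 5 of the 9 genes in WT. The number was 7 at 1 week and 9 after 5 weeks. Over all protein-coding genes 59.0%, 55.9% and 65.6% had one. Rbp4, Ghsr, Ffar4, Casr and Bche had it in all 3 lists. Sst and Lepr had it in both Taf4 KO lists, and Hhex and Cckbr at 5 weeks alone. Of the 4 genes without a WT call, 2 gained one at 1 week and 4 at 5 weeks, where 13.3% and 18.9% of all genes without a WT call did. No delta cell gene lost its call, where 14.5% of all genes with a WT call lost it at 1 week and 1.89% at 5 weeks. The loss at 1 week differed by the GC of the surrounding 1 Mb. In 5 equal groups of genes from low to high GC it was 2.12%, 5.43%, 8.77%, 17.8% and 29.4%. All 9 delta cell genes lay in groups 1 to 3, and the 4 that gained a call in groups 2 and 3. With the lists cut to an equal number of peaks, the calls numbered 5, 4 and 5 of 9, where 59.0%, 48.8% and 59.0% of all genes were called. None of Sst, Hhex, Cckbr and Lepr was called in any of these lists.

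Promoter calls of several other cell types of the islet preparation also grew in number. Of all protein-coding genes, 59.0%, 55.9% and 65.6% had a call in the WT, 1 week and 5 week lists. Endothelial markers were called at 2, 5 and 6 of 7 promoters in the WT, 1 week and 5 week lists, and stellate and fibroblast markers at 1, 2 and 5 of 8. Immune markers were called at 0, 2 and 2 of 8. Acinar markers were called at 2, 1 and 3 of 9 and duct markers at 4, 5 and 5 of 7. Beta cell markers were called at 10, 9 and 9 of 10, Ins1 and Ins2 in every list, as fits the islet label. Among the other hormone cells, alpha cell markers were called at 6, 6 and 7 of 7 and the PP and epsilon cell genes Ppy, Pyy and Ghrl at 0, 1 and 1 of 3. With list lengths made equal, the endothelial, stellate and immune calls were 2, 2 and 2, then 1, 1 and 3, and then 0 in each list. Acinar calls were 2, 0 and 2, duct calls 4, 2 and 3 and beta cell calls 10, 9 and 9. Alpha cell calls were 6, 5 and 5, and PP and epsilon calls 0, 1 and 1. Of all protein-coding genes 59.0%, 48.8% and 59.0% were called in these equal lists. The part of these cell types, and of depth, in the delta cell calls was not tested. A bulk library does not show which cells a peak came from. More delta cells, more open chromatin per delta cell and open chromatin at delta cell genes in other cells cannot be told apart in it. The paper describes cells of mixed identity 1 week after Taf4 loss, some with both insulin and somatostatin transcripts. It observed no such populations at 5 weeks. The part of such cells in the delta cell calls was not tested. The added calls at Sst, Hhex, Cckbr and Lepr were in none of the equal lists.

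**Figure D1:**
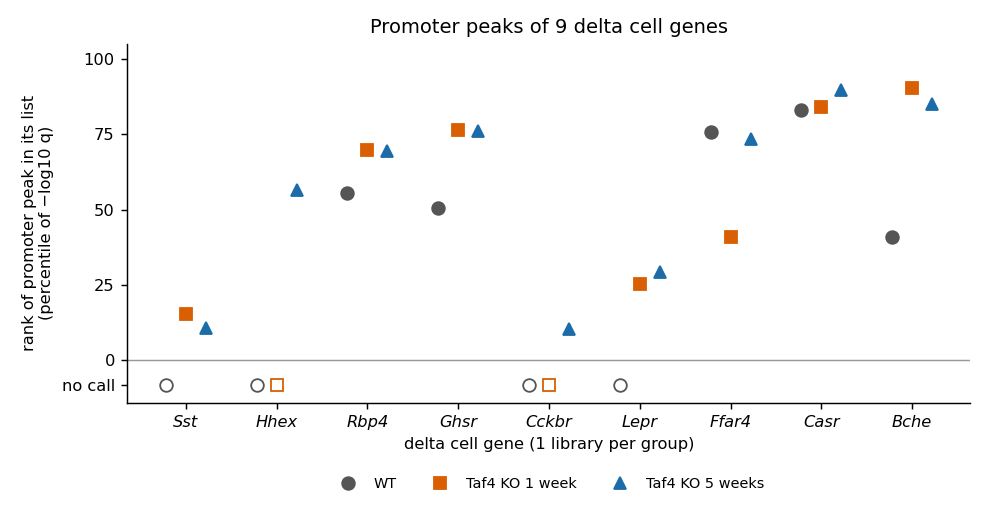
Rank of the promoter peak of each delta cell gene within its own list, as the percentile of -log10 q on the vertical axis, for WT (circles), Taf4 KO 1 week (squares) and Taf4 KO 5 weeks (triangles); open symbols mark no call. The promoter peaks of Sst at 15.5 and 10.7 and of Cckbr at 10.3 sit low in their lists, whereas those of Casr sit at 83.0, 84.0 and 89.7. Counted from the strongest peak, the Casr places were 10338, 24033 and 15680 in the WT, 1 week and 5 week lists.

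Sst (ENSMUSG00000004366) lies on the minus strand of chromosome 16, 23889667-23890930. The WT list had no peak at its promoter, and the nearest WT peak began 7286 bp upstream. At 1 week a peak of 1077 bp covered the start (chr16:23890902-23891978) at a fold of 2.21. Its -log10 q of 1.41 put it at the 15.5 percentile. At 5 weeks the peak was 424 bp wide (chr16:23890845-23891268) at a fold of 1.99. Its -log10 q of 1.33 put it at the 10.7 percentile. Both peaks covered the CRE printed above and both lay near the calling threshold, since the lowest -log10 q in these lists was 1.01.

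The strongest open chromatin in the Sst window was distal, in a region downstream of the gene that all 3 lists held. Its centre lay 47979 bp past the Sst start, between genes, at chr16:23842448-23843453. The WT peak had a fold of 4.99, a -log10 q of 17.40 and place 4332 in its list. The 1 week peak had a fold of 5.91, a -log10 q of 28.81 and place 159. At 5 weeks the fold was 5.35, the -log10 q 29.34 and the place 1474. The peak thus stood nearer the top of both Taf4 KO lists. Its central bases, printed above, were 38.7% GC and held TAATTA 1 time.

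A second region, 7626 bp upstream of the Sst start (chr16:23897839-23899273), was also open in all 3 lists. Its fold went from 3.46 in WT to 3.61 at 1 week and 4.10 at 5 weeks. Its place went from 22558 in WT to 15214 and 13943. The only other peak of the window was a 5 week peak inside Rtp2, at the 30.8 percentile.

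Hhex (ENSMUSG00000024986, chromosome 19, 37507377-37515218, plus strand) is the factor of the list, and its call depended on which start was used. The annotation places coding starts at the gene's 5′ end and further in, and the RefSeq start, matched by its sequence, lay 1954 bp past that end. A region around the RefSeq start, chr19:37508647-37510362, was open in every list. The WT peak reached up to this start without covering it, and the Taf4 KO peaks covered it. The fold went from 3.06 in WT to 2.77 at 1 week and 2.35 at 5 weeks, with percentiles of 41.2, 73.0 and 56.6. With RefSeq starts the promoter was called in all 3 lists, and the counts became 6, 8 and 9 of 9 genes. No share of all genes stands beside these RefSeq counts. By place the Hhex promoter stood lower in both Taf4 KO lists, at 40609 and 65878 against 35825 in WT.

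Downstream of Hhex, 25106 bp past its annotated 5′ end, a stronger region was held by all 3 lists (chr19:37532026-37532939). Its places were 9102, 10669 and 14982. Hhex and Rbp4 were the genes, with Cckbr, at which a region was open in WT and at 5 weeks and missed at 1 week. At Hhex there were 2 such regions, one in an intron and one past the gene's end.

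Rbp4 (ENSMUSG00000024990, chromosome 19, 38191110-38199811, minus strand) had a wide promoter peak in each list. It was 1287 bp in WT, with a fold of 3.41, 1569 bp at 1 week, with a fold of 2.68, and 1586 bp at 5 weeks, with a fold of 2.66. Its percentiles were 55.7, 69.9 and 69.4, but its places were 26970, 45308 and 46381, lower in both Taf4 KO lists. The other regions nearest to Rbp4 lay at or inside Pde6c, and the one at the Pde6c promoter (chr19:38206370-38206831) was the strongest in each list.

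Among the receptors, the ghrelin receptor gene Ghsr (ENSMUSG00000051136, chromosome 3, 27270273-27276932, plus strand) kept a promoter peak with little change of place. The fold of the peak went from 3.43 in WT to 2.83 at 1 week and 2.98 at 5 weeks, and its places were 30005, 35293 and 36484. The downstream region printed above, 36143 bp past the start, had places of 19977, 14713 and 35162. Upstream, a region inside Tnfsf10 (chr3:27225601-27226913) went from the 13.4 percentile in WT to 90.6 at 1 week and 69.1 at 5 weeks, or places 52759, 14074 and 46899. The other 8 regions of this window were each in a single Taf4 KO list.

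Cckbr (ENSMUSG00000030898, chromosome 7, 112574331-112619412, plus strand) had its promoter call at 5 weeks alone. That peak was 1827 bp wide (chr7:112573076-112574902) and had a fold of 1.98. Its -log10 q of 1.32 put it at the 10.3 percentile. It overlapped a WT peak of 222 bp that began 275 bp past the nearest coding start, just outside the promoter window. At 1 week the nearest peak was 24697 bp downstream. The strongest region of this window, chr7:112547988-112549378, lay over the promoter of Fam160a2 and was number 641, 541 and 89 in the WT, 1 week and 5 week lists. The upstream region printed above, inside Fam160a2, was at the 91.9 percentile at 1 week and 80.7 at 5 weeks, the highest mean of the regions that both Taf4 KO lists held and WT did not.

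Lepr (ENSMUSG00000057722, chromosome 4, 101390009-101487957, plus strand) had no WT peak in its whole window, the nearest lying 69131 bp upstream of the start. The 1 week list held 10 peaks there and the 5 week list 9. The promoter peak was 758 bp wide at 1 week (chr4:101389973-101390730) and 808 bp at 5 weeks (chr4:101389930-101390737). Its -log10 q was 1.56 and 1.70, which put it at percentiles of 25.2 and 29.2. Both peaks covered the annotated start. The highest of the Lepr peaks were at the 75.3 percentile at 1 week, in an intron, and at 78.3 at 5 weeks, past the gene's end. With lists of equal number, no Lepr region was in both Taf4 KO lists.

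Ffar4 (ENSMUSG00000054200, chromosome 19, 38171569-38188753, plus strand) had a promoter peak that, of the 5 called in every list, moved furthest down the list at 1 week. The peak over its start had a fold of 4.05 and place 14730 in WT, 2.37 and 88781 at 1 week, and 2.89 and 40370 at 5 weeks. The 1 week call was lost when list lengths were made equal and when the lists were scaled to the WT background. All 6 regions nearer to Ffar4 than to Rbp4 were in all 3 lists. Their windows overlap, and a region inside Pde6c that both windows held was missing at 1 week. Its 3 upstream regions between genes went the other way from its promoter. The region 19076 bp upstream (chr19:38152064-38152921) went from a fold of 3.97 in WT to 5.50 at 1 week and 4.96 at 5 weeks, with places of 22360, 1753 and 4760. The region 9712 bp upstream had places of 28506, 15284 and 20183, and the one 5138 bp upstream 38038, 22697 and 32934. The intronic region 15616 bp past the start had places of 18410, 6884 and 19710, and the one over the promoters of Cep55 and I830134H01Rik (chr19:38128081-38129811) 2057, 14638 and 11797.

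Casr (ENSMUSG00000051980, chromosome 16, 36493782-36562227, minus strand) had the most intronic peaks of the 9 genes in each list. Its promoter peak went from a fold of 4.04 in WT to 2.94 at 1 week and 3.40 at 5 weeks, at places 10338, 24033 and 15680. Its introns held 5 peaks in WT, 10 at 1 week and 12 after 5 weeks. All 5 intronic WT regions were in both Taf4 KO lists. The strongest, printed above (chr16:36542833-36543614), went from a fold of 5.56 in WT to 5.08 at 1 week and 4.68 at 5 weeks. Its places were 1458, 2122 and 3292. Its neighbour 24814 bp past the start (chr16:36536997-36537828) had places of 6956, 2748 and 6670.

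The introns of Casr also supplied 5 of the 6 highest regions that both Taf4 KO lists held and WT did not. They had folds from 2.65 to 3.28 at 1 week and from 2.13 to 3.02 at 5 weeks. Of the 27 such regions in all windows, 7 were still so when list lengths were made equal and 5 when the lists were scaled to the WT background. Of those left after scaling, 4 were in Casr and the other was the Cckbr upstream region. The one WT peak that neither Taf4 KO list overlapped was also in the Casr window, past the gene's end (chr16:36473798-36474033), at the 5.72 percentile.

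**Figure D2:**
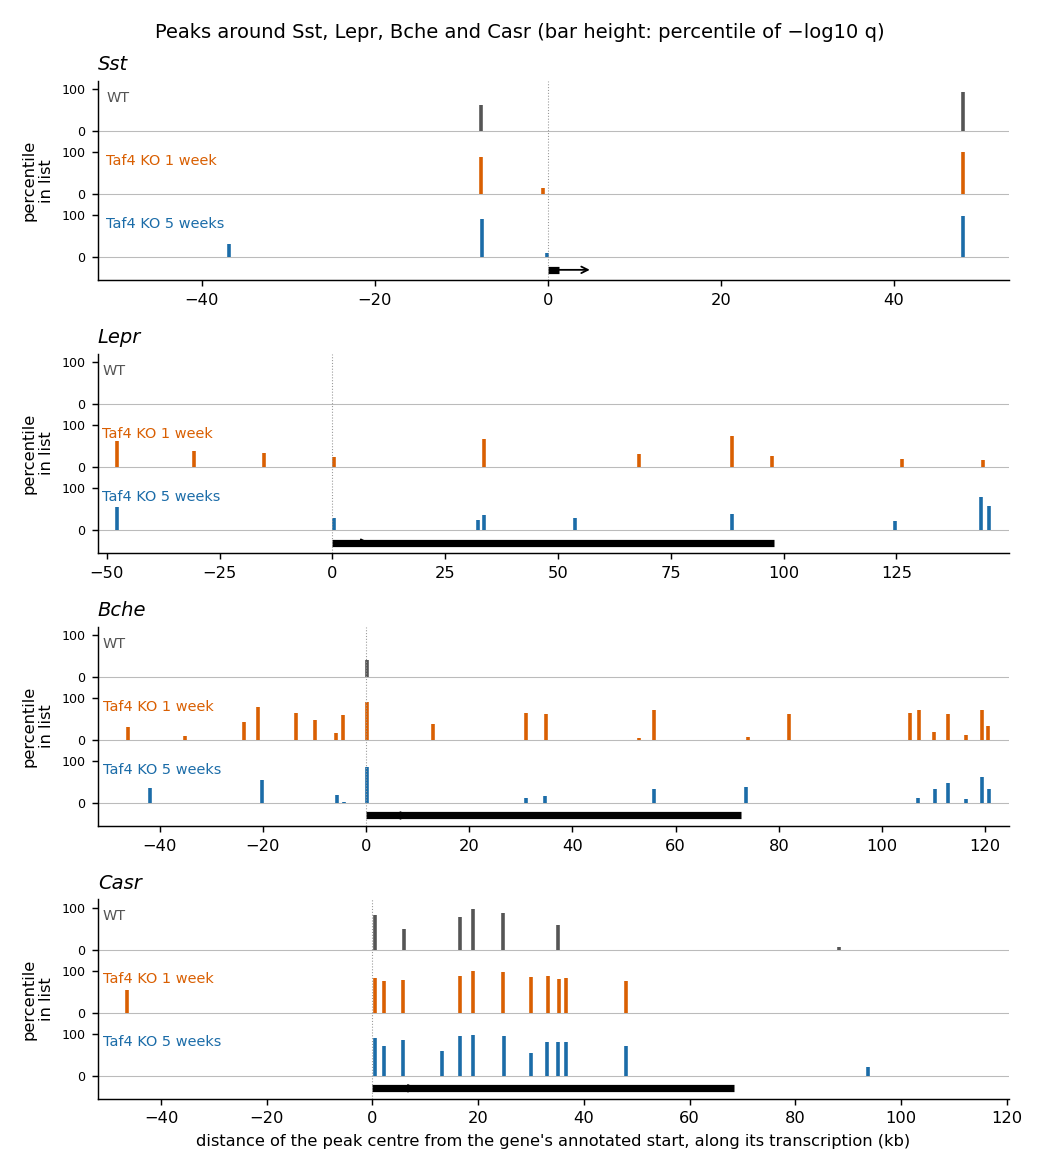
Peaks of the 3 lists around Sst, Lepr, Bche and Casr by the distance of their centre from the annotated start in kb, with the gene body as a black bar. Bar height is the percentile of -log10 q within the list. The Lepr window is empty in WT, and the Casr introns hold 5, 10 and 12 peaks.

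Bche (ENSMUSG00000027792, chromosome 3, 73439730-73512337, minus strand) showed the largest gain in peak number. Its window went from 1 peak in WT to 23 at 1 week and 15 at 5 weeks. The single WT peak was at the promoter and began 19 bp past the start, with a fold of 3.19. Its fold was 3.58 at 1 week and 3.63 at 5 weeks, and its place went from 35900 in WT to 14267 and 22806. It was the only promoter of the 5 called in every list that stood nearer the top in both Taf4 KO lists. Of the added regions 13 were in both Taf4 KO lists, 9 at 1 week alone and 1 at 5 weeks alone, mostly between genes. Of the 13, 1 was still in both when list lengths were made equal and 0 after the scaling.

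Over all protein-coding genes, the median peak density differed between groups of genes by GC. The 1 Mb around the Bche start was 36.4% GC, in the lowest of 5 equal groups of genes by GC, whose median window held 0.703 peaks per 100 kb in WT, 6.94 at 1 week and 4.15 at 5 weeks. The Bche window held 0.579, 13.3 and 8.69 per 100 kb. The other delta cell genes lay between 41.6% and 44.0% GC, in the second and the middle group. The median windows of these groups held 2.49 and 4.08 peaks per 100 kb in WT, 4.35 and 3.78 at 1 week, and 4.80 and 5.70 at 5 weeks. Cckbr, at 42.0% GC, went from 2.76 to 9.65 and 6.89 per 100 kb, and Lepr, at 42.6%, from 0 to 5.05 and 4.55. Hhex, at 43.0%, went from 3.71 to 1.85 and back to 3.71. Ghsr and Rbp4 were both in the middle group. Ghsr, at 44.0%, went from 2.81 to 6.56 and 6.56, and Rbp4, at 43.9%, from 9.20 to 8.28 and 9.20. The part of base composition in the delta cell gene counts was not tested.

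**Figure D3:**
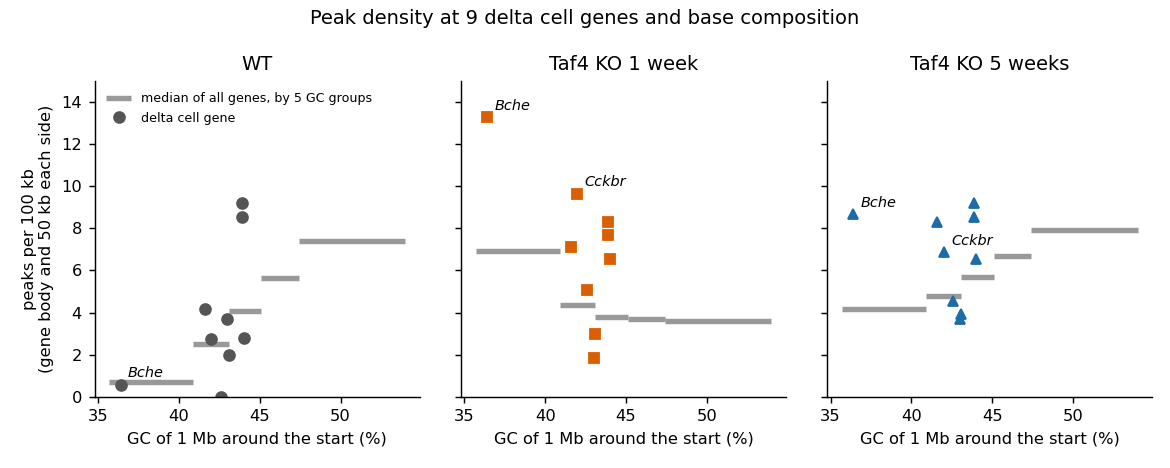
Peaks per 100 kb of gene window against the GC content of the 1 Mb around the start, for the 9 delta cell genes in each list, with the medians of all protein-coding genes by 5 GC groups as grey bars. Bche lies near the median of its group in WT, at 0.579 against 0.703, and above it at 1 week, at 13.3 against 6.94. The Rbp4 and Ffar4 windows overlap, so their points share most peaks.

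Joined across lists, the window peaks formed 102 regions. All 3 lists held 27 of them (26.5%), where 15.7% of all regions were so shared. Another 27 (26.5%) were in both Taf4 KO lists and not in WT, against 17.9% of all regions. Of the rest, 27 were at 1 week alone (26.5%, against 30.0% of all regions) and 16 at 5 weeks alone (15.7%, against 26.2%). Another 4 were in WT and 5 weeks (3.92%, against 4.88%), and 1 in WT alone (0.980%, against 4.91%). Of the WT window peaks, a 1 week peak overlapped 26 of 32 (81.2%, Wilson 95% interval 64.7 to 91.1). A 5 week peak overlapped 31 of 32 (96.9%, 84.3 to 99.4). Over all WT peaks these shares were 61.9% and 79.5%. The WT window peaks were stronger than the WT list as a whole, with a median -log10 q of 5.06 against 3.71. The same medians were 2.60 against 2.08 in the 1 week list and 2.89 against 2.38 in the 5 week list. The part of peak strength in the shares of regions and of overlapped peaks was not tested. The window peaks are few and neighbouring peaks are not independent, so the intervals cover the counting of peaks only.

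**Figure D4:**
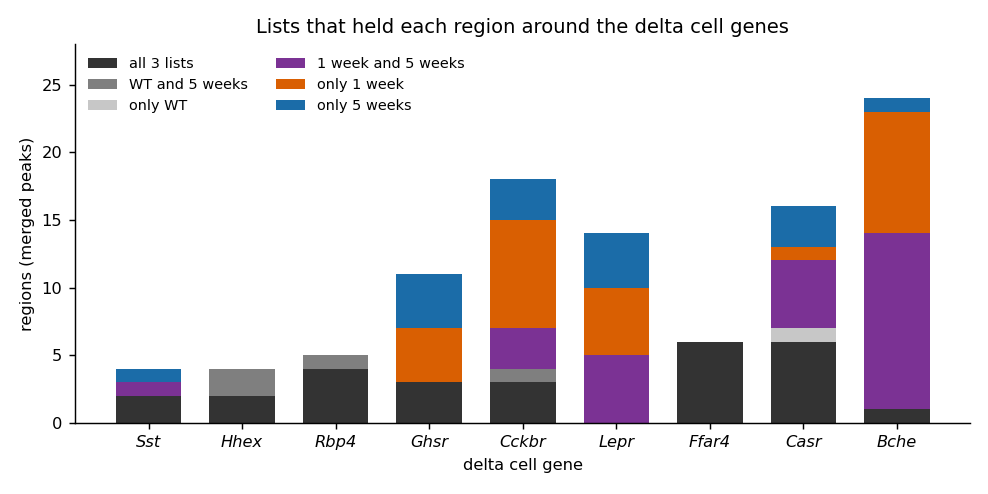
Number of regions around each delta cell gene by the lists that held them. All 6 regions assigned to Ffar4 as the nearer gene were in all 3 lists, whereas Bche had 1 such region of 24 and Lepr 0 of 14.

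The 27 regions open in every list had a higher median percentile after Taf4 loss, but by place they moved in both directions. Their median percentile went from 63.0 in WT to 87.4 at 1 week and 86.7 at 5 weeks, and over all 36612 such regions it was 66.9, 86.3 and 86.6. By place from the top, 12 of the 27 (44.4%) stood higher at 1 week than in WT and 14 (51.9%) at 5 weeks. Over all shared regions these were 46.0% and 44.5%. Both distal Sst regions and the Bche promoter stood higher in both Taf4 KO lists, while the Hhex, Rbp4, Ghsr, Ffar4 and Casr promoters stood lower in both.

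**Figure D5:**
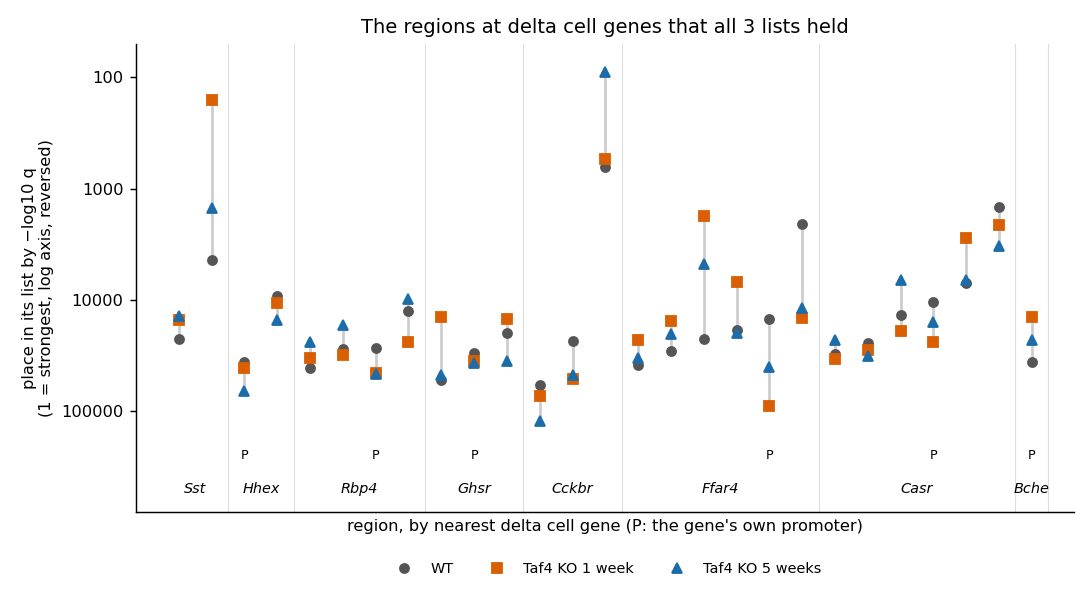
Place of the 27 regions held by all 3 lists, counted from the strongest peak by -log10 q on a reversed log axis, grouped by gene; P marks a gene's own promoter. The downstream Sst region goes from 4332 in WT to 159 at 1 week and 1474 at 5 weeks, and the Ffar4 promoter from 14730 to 88781 and 40370.

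Further genes of the somatostatin pathway were read in the same way. Promoters of the 5 somatostatin receptor genes were called at 4, 4 and 5 in the WT, 1 week and 5 week lists, and those of 5 ligand genes at 1, 2 and 3, where 59.0%, 55.9% and 65.6% of all protein-coding genes had a call. The receptor genes Sstr1, Sstr2, Sstr3 and Sstr4 had one in every list, and Sstr5 at 5 weeks alone, at the 52.6 percentile. With list lengths made equal, the receptor calls were 4, 4 and 3 and the ligand calls 1, 2 and 3. The shares of all protein-coding genes were then 59.0%, 48.8% and 59.0%. Of genes for factors that act at the Sst promoter, Pdx1, Pknox1, Isl1, Pax6 and Creb1 were called in every list. So were Crhr2, the receptor for Ucn3, and the 3 genes for prohormone processing, Pcsk1, Pcsk2 and Cpe. Of the ligand genes, Ucn3, whose product from beta cells drives somatostatin release, was called in all 3 lists. The gene for ghrelin, Ghrl, was called in both Taf4 KO lists, at the 79.3 and 67.9 percentiles, and the gene for cholecystokinin, Cck, at 5 weeks alone, at 78.6. Gast, Lep and the somatostatin relative Cort were called in no list.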

How the data were processed

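Islet cells of 1 WT library and 2 Taf4 KO libraries were profiled by ATAC-seq. The authors mapped reads to mm9 with Bowtie 1.0.0, keeping uniquely placed reads, and called broad peaks per library with MACS2 2.1.1, after bcl2fastq 2.17.1.14 (submitters' processing notes). The parameters of MACS2, any duplicate removal and any shift to the insertion site are not given in the sources used here. In the broad peak format, the deposited lists give for each peak the fold over background as a ratio, the −log10 of the p-value and of the q-value, and a score that follows the −log10 q and was not used. Read totals are not in the lists. The local background was solved from fold and p under a Poisson model, and its first percentile was taken as a measure of depth.

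Peaks on chromosomes 1 to 19, X and Y were kept. Genes came from the GENCODE annotation of NCBIM37, the same build as mm9, with 46015 coding starts. Overlaps counted from 1 bp. Peaks shared by 2 windows were counted once and assigned to the nearer gene in region counts. RefSeq promoters were placed on mm9 by exact sequence match. The motifs searched on both strands were CRE TGACGTCA, homeodomain TAATTA, forkhead TGTTTAC, RFX GTTGCCAT, the TATA box (TATAAA) and the CTCF core. The AP-1 motif, TGANTCA, was also searched. Python 3.11.15, numpy 2.4.6, pandas 2.3.3, scipy 1.17.1 and pysam 0.24.0 were used, and the code was tested on simulated lists.

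The text names all 9 genes with every promoter peak, and distal regions in all 3 lists at or above the 75th WT percentile. It also names the 6 highest in both Taf4 KO lists alone, WT peaks in no Taf4 KO list, and pathway genes with differing calls. Other regions were chosen after their values were seen. Members and lists were chosen with earlier results of these data known. No test between groups was possible with 1 library each. Alternatives were a −log10 q of at least 3, equal list lengths, lists scaled to the WT background, other window sizes, joined peaks and reciprocal overlap. RefSeq starts, chosen after seeing the data, were a further one. One gene of the pathway list is not reported here.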

Additional observations from a re-analysis of the deposited data

How the results depend on the processing

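The larger number of delta cell promoter calls at 1 week was not seen in any of 3 stricter settings. The larger number at 5 weeks was not seen with equal list lengths or after scaling. With only peaks whose −log10 q reached 3, promoter calls were 4 in WT, 3 at 1 week and 5 at 5 weeks. The delta cell calls were 5, 4 and 5 in lists of equal number and again 5, 4 and 5 after scaling to the WT background. The shares of all genes were 59.0%, 48.8% and 59.0% in lists of equal number. After scaling they were 59.0%, 49.1% and 57.1%. In the same 3 settings the window peaks numbered 22, 32 and 32 in WT, 34, 46 and 47 at 1 week and 35, 35 and 32 at 5 weeks, and the regions in both Taf4 KO lists but not WT 10, 7 and 5. With 20 kb on each side the window peaks were 49 at 1 week and 48 at 5 weeks and these regions 17. With 100 kb the window peaks were 61 in WT and 118 at 5 weeks, and the regions in all 3 lists 46. The share of WT window peaks overlapped by the 5 week list was 78.1% in lists of equal number, 78.1% after scaling and 65.6% with a reciprocal overlap of 50%. Joining peaks across gaps of up to 200 bp changed neither count of regions. A wider promoter window of 2000 bp upstream to 500 bp downstream gave 7, 8 and 9 promoter calls. No share of all genes stands beside the counts of this wider window. No replicate could be left out, and no paired analysis was possible because no result came from a test and each group had 1 library. Depth could be judged only from the recovered background. A peak missing from the shallower WT list was not detected at that depth, which does not show that the site was closed.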
